A study of Rattus norvegicus with 6 samples.

Results

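The nuclear-encoded respiratory chain is described here across 6 RNA-seq libraries of rat dorsal root ganglia. Members were taken by name: every row of the table whose symbol begins with Nduf, Uqcr or Atp5, or with Cox followed by 4, 5, 6, 7 or 8, and the rows Sdha, Sdhb, Sdhc and Sdhd. This gave 92 of the 22864 genes in the table. The name rule itself uses no measured value, but the set was chosen with earlier results of these data known. Of these, 70 encode subunits common to most tissues (34 of complex I, 4 of complex II, 8 of complex III, 9 of complex IV and 15 of complex V). A further 7 are complex I assembly factors, 8 are tissue-restricted isoforms, 4 are rows of copies or possible copies, and 3 are related factors. No member passed the test in any comparison, and the interval of each of the 69 common subunits that were tested lay within a 1.5-fold change in each of the 3 comparisons. Cox7a2 is counted with the copies and not among the 69, and its interval reached past a 1.5-fold change in all 3.

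The rats are labelled WT, with no strain or age given, the protocol's ring size is one for males, and every rat had pentobarbital anaesthesia. Rats of the 2 CPIP (chronic post-ischaemia pain) groups had a hind limb ligated with an O-ring by the ankle for 3 h before it was released, a model of ischaemia followed by reperfusion, while the sham rats had no ring. From 2 days after modelling, Sham+Veh and CPIP+Veh rats had daily intrathecal vehicle, and CPIP+ETA rats had daily intrathecal etanercept, a fusion protein carrying a TNF receptor that captures TNF. The L4 to L6 ganglia of the injured side were taken at 7 days. Each group has 2 libraries, written as Sham+Veh 1 and 2 and so on, and the labels do not say whether they came from separate or pooled animals, so a p-value here reflects only how far these libraries differ, which may be technical.

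The respiratory chain sits in the inner mitochondrial membrane. Complex I takes electrons from NADH and complex II takes them from succinate, ubiquinone carries them to complex III, and cytochrome c carries them on to complex IV, which reduces oxygen to water. Complexes I, III and IV pump protons, and complex V, the ATP synthase, uses the proton gradient to make ATP. Sensory neurons supply very long axons with ATP, and mitochondrial function in these axons has been studied in several painful neuropathies. The nuclear genes of the chain are known targets of the transcription factors NRF1 and GABP and of the coactivator encoded by Ppargc1a.

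Library totals were 18285251 to 19981250 counts, and the members together took 1.09% to 1.16% of them. Levels are CPM, counts scaled to the TMM-adjusted library size, and they are not divided by gene length, so they compare libraries within a gene and not genes with each other. All 8 sensory neuron markers examined (Prph, Nefh, Tubb3, Isl1, Avil, Scn9a, Scn10a and Calca) were detected in all libraries, with a summed level of 16928 to 18783 CPM. In a bulk sample, fewer cells of a type and less RNA per cell cannot be told apart.

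Promoter sequences were looked up because the chain is known to share regulators. RefSeq promoter windows of the GRCr8 assembly (250 bases before to 50 after the start) were found for 78 members, 62 of them common subunits. The NRF1 motif, spelled GCGCA, then any base, then GCGC, was in 13 of the 62 (21.0%), against 9.05% of the windows of 12065 genes tested and 4.71% of all 27457 windows. The ETS motif bound by GABP, spelled CCGGAAG, was in 18 (29.0%), against 15.9% and 9.22%. The YY1 motif, spelled AAGATGGCG, was in 9 (14.5%), against 3.31% and 1.93%, and TATAAA was in 4 (6.45%), against 7.46% and 14.3%. Both strands were searched, no motif contains another, and NRF1 and ETS matches occurred in the same window for 1 common subunit. A match describes letters only and is not a measured binding site.

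The matches are shown for the 5 members that had one of the 4 lowest p-values in a comparison below and hold an NRF1 or ETS match upstream of the start. Each line is 60 bases of RefSeq sequence (GRCr8), written 5′ to 3′ in the direction of the gene, with the motif in capitals, which is NRF1 in the first 4 and ETS, on the opposite strand, in the last. Sdha lies at chr1:30764482-30764541 on the plus strand. The others lie on the minus strand, Ndufa5 at chr4:53971236-53971295, Atp5g2 at chr7:135678240-135678299, Ndufs5 at chr5:141264497-141264556 and Sdhd at chr8:59850657-59850716.
Sdha: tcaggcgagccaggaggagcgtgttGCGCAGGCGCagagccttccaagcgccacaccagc
Ndufa5: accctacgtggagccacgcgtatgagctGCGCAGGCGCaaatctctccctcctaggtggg
Atp5g2: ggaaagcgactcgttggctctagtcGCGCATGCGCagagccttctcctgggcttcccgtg
Ndufs5: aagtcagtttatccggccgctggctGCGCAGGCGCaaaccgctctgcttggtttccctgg
Sdhd: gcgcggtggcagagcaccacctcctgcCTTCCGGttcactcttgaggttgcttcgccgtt

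The first comparison, CPIP+Veh against Sham+Veh, asks what the limb ligation changed in the ganglion. The median log2 fold change of the 86 members tested was 0.00038, with 44 members above 0, and the median of all 15531 genes tested was -0.0031. The 69 common subunits among them had a median of -0.014, with 32 above 0 and 37 below. With edgeR 0 of 86 members passed at an adjusted p under 0.05 (0.0193% of all genes did), and DESeq2 and limma-voom also called 0. Among all genes edgeR called 3, DESeq2 49 and limma-voom 2. At an unadjusted p under 0.05 there was 1 member on the lower side, Cox6a1 (2.59% of all genes), and 0 on the higher side (2.34%), and 4.94% of all genes were at that threshold in either direction. Groups did not overlap for 22 of 86 members that were lower and 7 that were higher in CPIP+Veh, against 19.5% and 17.6% of all genes. Of the 69 common subunits, 21 were lower and 5 higher without overlap. Complexes I to V together summed to 10834.5 and 10675.4 CPM in Sham+Veh and 10659.8 and 10506.8 with CPIP+Veh. Both sham sums lay above both CPIP+Veh sums, while CPIP+ETA had the highest and the lowest (10995.2 and 10310.1). For the 69 common subunits tested, the 95% interval of the change had a median half-width of 0.154 on the log2 scale. The lowest bound of any of them was -0.400, for Ndufb7, and the highest was 0.303, for Uqcrc2.

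Etanercept was compared with vehicle within the model to find what TNF blockade changed. Here too 0 of 86 members passed with edgeR (0% of all genes did), DESeq2 or limma-voom, and the median log2 fold change was -0.00067 beside -0.0016 for all genes. Among all genes DESeq2 called 21 and limma-voom 0. A single member, Ndufaf2, was at an unadjusted p under 0.05, on the lower side (2.73% of all genes), with 0 on the higher side (2.42%), and 5.15% of all genes were there in either direction. Groups did not overlap for 8 members that were higher and 11 that were lower with etanercept, against 15.7% and 16.9% of all genes. Of the 69 common subunits, 8 were higher and 9 lower without overlap, and their median was 0.0022. The bounds of the common subunits ran from -0.292 (Atp5g2) to 0.452 (Ndufb7).

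CPIP+ETA against Sham+Veh shares its libraries with both comparisons above. Again 0 of 86 members passed with edgeR (0.0193% of all genes did), DESeq2 or limma-voom. Among all genes DESeq2 called 50 and limma-voom 1. With edgeR Cox6a1, on the lower side, was the 1 member at an unadjusted p under 0.05, with 0 on the higher side (3.73% and 2.64% of all genes, and 6.37% in either direction). The median was -0.018 beside -0.0020 for all genes. Non-overlap was seen for 15 members on the lower and 6 on the higher side, against 18.5% and 17.2% of all genes. Of the 69 common subunits, 13 were lower and 5 higher without overlap, and their median was -0.019. The bounds of the common subunits ran from -0.388 (Ndufa3) to 0.372 (Ndufb7).

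**Figure D1:**
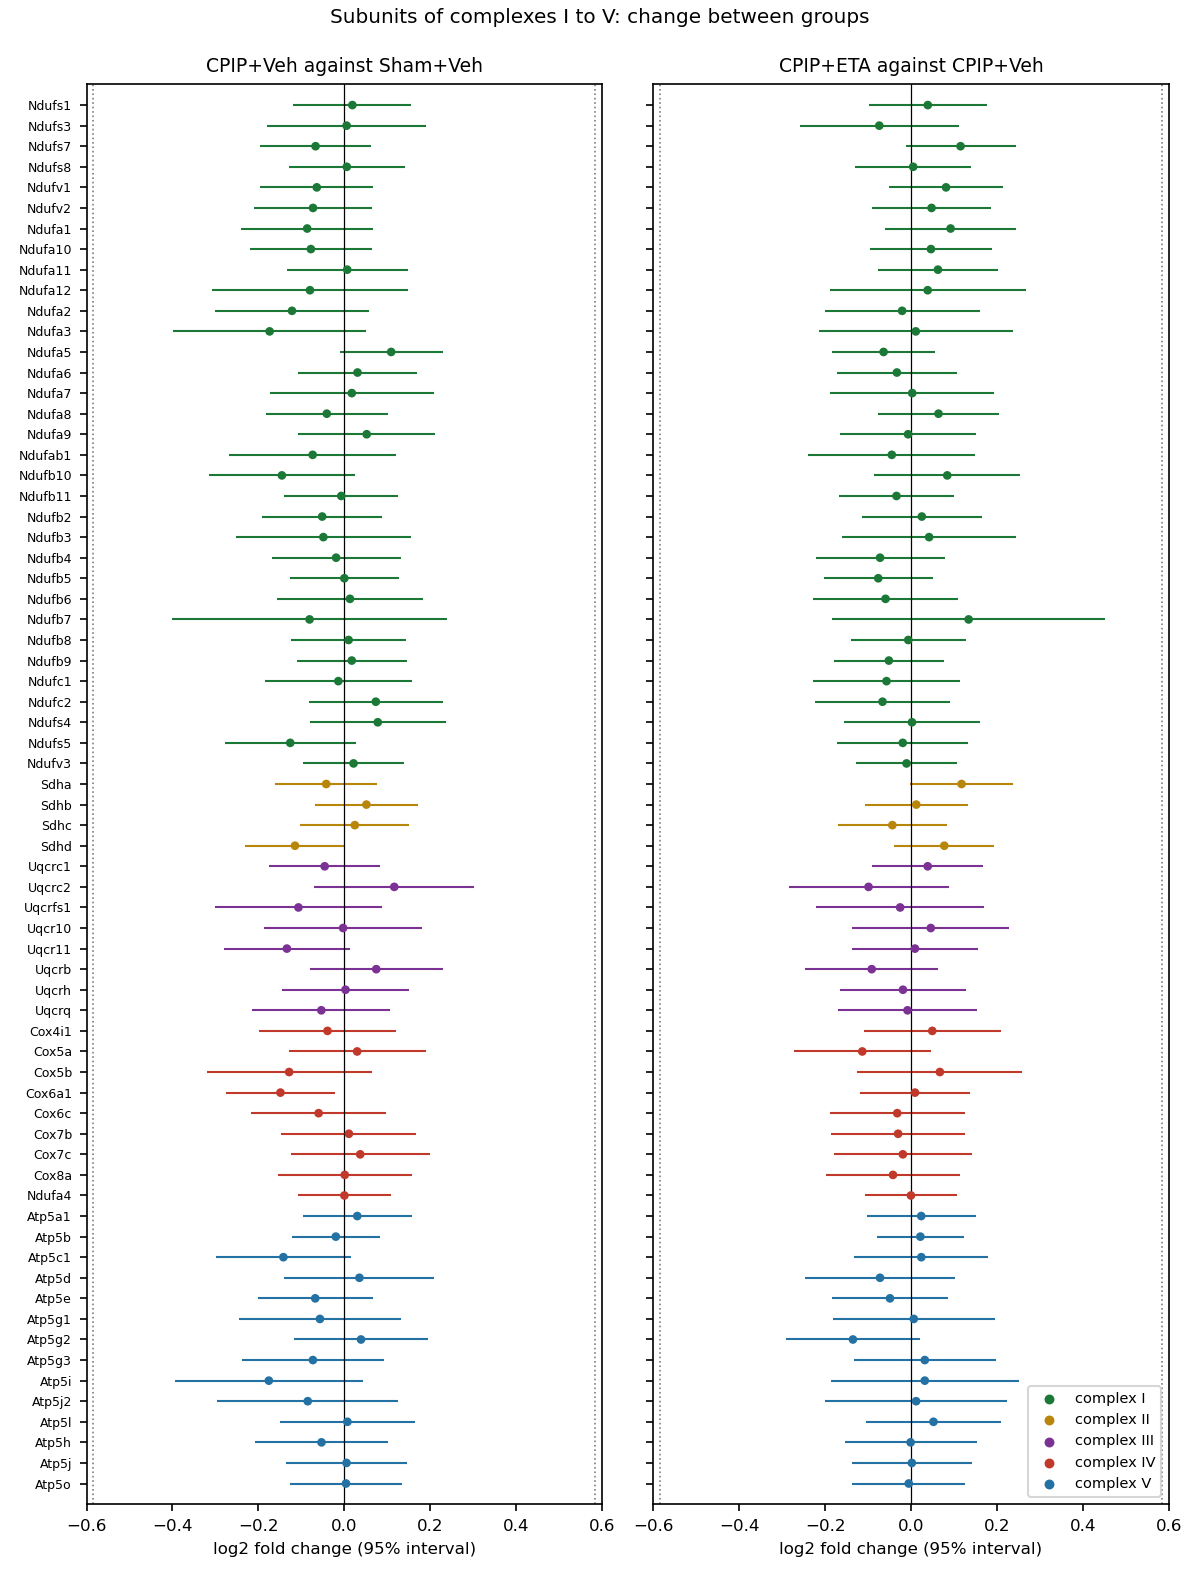
Log2 fold change of the tested common subunits named on the vertical axis, coloured by complex, with its 95% interval, for CPIP+Veh against Sham+Veh (left) and CPIP+ETA against CPIP+Veh (right). Dotted lines mark a 1.5-fold change, and every interval drawn lies between them in both panels.

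Complex I, the NADH dehydrogenase, had 34 common members in the table, all tested, with medians of -0.010 for CPIP+Veh against Sham+Veh, 0.0024 for CPIP+ETA against CPIP+Veh and -0.0043 for CPIP+ETA against Sham+Veh. Single members ran from -0.17 to 0.11, -0.076 to 0.13 and -0.16 to 0.080 in the 3 comparisons. Its summed level was 3401 and 3293 CPM in Sham+Veh, 3327 and 3260 with CPIP+Veh, and 3440 and 3229 with CPIP+ETA. The highest and the lowest of these 6 sums were both in CPIP+ETA, so the etanercept libraries spanned those of the other groups.

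The nuclear core subunits of complex I hold the flavin and the iron-sulphur clusters of the matrix arm or lie beside them. Ndufs1, which carries clusters of the electron input module, stood at 211 and 203 CPM in Sham+Veh, 217 and 203 with CPIP+Veh, and 221 and 211 with CPIP+ETA. Its groups overlapped in all 3 comparisons. Ndufv1, the subunit that binds NADH and the flavin, stood at 208 and 203 CPM in Sham+Veh, 199 and 195 with CPIP+Veh, and 216 and 201 with CPIP+ETA, a log2 fold change of -0.064 for the model and 0.081 for etanercept, neither past the test. Ndufs7, which holds the cluster that passes electrons to ubiquinone, was at 73.4 and 75.2 CPM in Sham+Veh, 70.3 and 71.6 with CPIP+Veh, and 75.3 and 78.5 with CPIP+ETA. The etanercept libraries were the highest of the 6 for Ndufs7, with a log2 fold change against CPIP+Veh of 0.12 (SE 0.054, adjusted p = 0.938). The core subunits Ndufs3, Ndufs8 and Ndufv2 had log2 fold changes of 0.0056, 0.0061 and -0.073 for the model and -0.074, 0.0049 and 0.048 for etanercept, and none of these passed.

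The supernumerary subunits of complex I surround the core and are needed for its assembly and stability. Ndufa5, an accessory subunit of the matrix arm whose promoter holds an NRF1 match, was at 63.4 and 62.6 CPM in Sham+Veh, 68.1 and 67.8 with CPIP+Veh, and 65.2 and 64.8 with CPIP+ETA. Both CPIP+Veh values lay above the other 4, and the log2 fold change against sham was 0.11 (SE 0.05, adjusted p = 0.938), which did not pass. Ndufs5, an accessory subunit on the intermembrane side, stood at 82.6 and 90.6 CPM in Sham+Veh, 81.1 and 77.7 with CPIP+Veh, and 77.9 and 78.8 with CPIP+ETA. Both sham values lay above the other 4, but they differed from each other by more than the lower of them differed from the etanercept libraries, and the change of CPIP+ETA against sham was -0.15 (SE 0.064, adjusted p = 0.802). A row now named as its pseudogene, Ndufs5-ps2, had 7 to 263 counts per library, and reads shared by the pair cannot be told apart. The 10 Ndufb subunits, which belong to the membrane arm, had medians of -0.013, -0.020 and -0.037 in the 3 comparisons. Ndufb7 had the highest coefficient of variation of the common subunits over the 6 libraries (10.8%), at 69.1 and 57.5 CPM in Sham+Veh, 63.5 and 56.3 with CPIP+Veh, and 73.0 and 58.4 with CPIP+ETA. Library 1 was the higher in every group for Ndufb7, and the replicate number marks no shared animal or batch in the labels.

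Complex I assembly factors build the enzyme and are absent from the finished complex. The 7 Ndufaf rows had medians of 0.040, -0.019 and 0.013 in the 3 comparisons. Ndufaf2, an assembly factor that resembles an accessory subunit and stands in for it before the enzyme is complete, was at 12.0 and 13.2 CPM in Sham+Veh, 13.9 and 14.2 with CPIP+Veh, and 11.6 and 12.2 with CPIP+ETA. The etanercept values lay below those of CPIP+Veh and overlapped those of sham, with a log2 fold change against CPIP+Veh of -0.24 (SE 0.10, adjusted p = 0.938) and a 95% interval of -0.48 to -0.00066.

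Complex II, succinate dehydrogenase, links the citric acid cycle to the chain and is encoded entirely by nuclear genes. Its catalytic subunit Sdha, which holds the flavin and oxidises succinate, stood at 265 and 257 CPM in Sham+Veh, 254 and 252 with CPIP+Veh, and 282 and 268 with CPIP+ETA. Both etanercept libraries lay above the other 4. The log2 fold change against CPIP+Veh was 0.12 (SE 0.05, adjusted p = 0.938) with a 95% interval of -0.0014 to 0.24, so Sdha did not pass. Sdhb, the iron-sulphur subunit, was at 127 and 124 CPM in Sham+Veh, 129.6 and 131 with CPIP+Veh, and 133 and 129 with CPIP+ETA, and its groups overlapped for etanercept against vehicle. Both sham values of Sdhb lay below the other 4. Its log2 fold change against sham was 0.052 (SE 0.050, adjusted p = 0.957) for CPIP+Veh and 0.064 (SE 0.050, adjusted p = 0.889) for CPIP+ETA, and neither passed.

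The membrane anchors of complex II are Sdhc and Sdhd, which bind ubiquinone. Sdhc stood at 79.8 and 81.4 CPM in Sham+Veh, 80.3 and 83.7 with CPIP+Veh, and 78.8 and 80.3 with CPIP+ETA, with overlap in all 3 comparisons. Sdhd was at 101 and 99.6 CPM in Sham+Veh, 92.2 and 92.6 with CPIP+Veh, and 97.6 and 97.4 with CPIP+ETA. The 3 groups of Sdhd formed separate pairs, highest in sham and lowest in CPIP+Veh. Libraries within each pair lay close together, but with 2 libraries a group this closeness does not measure the spread of the gene. The log2 fold change of Sdhd was -0.11 (SE 0.049, adjusted p = 0.938) for the model and 0.077 (SE 0.049, adjusted p = 0.938) for etanercept, and neither passed. The complex as a whole summed to 572 and 562 CPM in Sham+Veh, 556 and 559 with CPIP+Veh, and 592 and 574 with CPIP+ETA. Etanercept sums were the highest and CPIP+Veh sums the lowest, with means of 567 ± 7.61, 558 ± 2.31, 583 ± 12.1 CPM (SD, n = 2 each, in the order Sham+Veh, CPIP+Veh, CPIP+ETA). The 4 subunits had medians of -0.0086, 0.045 and 0.022 in the 3 comparisons.

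Complex III, the cytochrome bc1 complex, passes electrons from ubiquinol to cytochrome c. Its summed level was 1016 and 992 CPM in Sham+Veh, 1017 and 977 with CPIP+Veh, and 1021 and 943 with CPIP+ETA, and CPIP+ETA 2 was the lowest of the 6. The 8 subunits had medians of -0.024, -0.014 and -0.016 in the 3 comparisons. Uqcrfs1, the Rieske iron-sulphur protein, stood at 107 and 106 CPM in Sham+Veh, 107 and 91.6 with CPIP+Veh, and 94.5 and 101 with CPIP+ETA. CPIP+Veh 1 lay with the sham libraries and CPIP+Veh 2 was the lowest of all, so the model and sham overlapped. The large core proteins Uqcrc1 and Uqcrc2, which face the matrix, had log2 fold changes of -0.046 and 0.12 for the model and 0.039 and -0.10 for etanercept.

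Among the small subunits of complex III, Uqcr11 was at 98.8 and 96.1 CPM in Sham+Veh, 88.8 and 88.9 with CPIP+Veh, and 93.4 and 85.4 with CPIP+ETA. Both sham values lay above all 4 CPIP values, with log2 fold changes of -0.13 (SE 0.061, adjusted p = 0.938) for CPIP+Veh and -0.12 (SE 0.061, adjusted p = 0.817) for CPIP+ETA against the same sham libraries. The other 4, Uqcrb, Uqcrh, Uqcrq and Uqcr10, ran from -0.053 to 0.075 for the model.

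Complex IV, cytochrome c oxidase, is the site of oxygen consumption. Its 9 common members here include Ndufa4, which was first assigned to complex I and is now counted with complex IV. The 9 had medians of 0.00048, -0.019 and -0.041 in the 3 comparisons. The summed level was 1888 and 1894 CPM in Sham+Veh, 1838 and 1852 with CPIP+Veh, and 1915 and 1767 with CPIP+ETA. Both sham sums lay above both CPIP+Veh sums, while the etanercept libraries were the highest and the lowest of the 6. Group means were 1891 ± 4.56, 1845 ± 9.62, 1841 ± 104 CPM (SD, n = 2 each) for Sham+Veh, CPIP+Veh and CPIP+ETA.

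Cox6a1, the common form of subunit VIa at the dimer interface, was the member with the lowest p in both comparisons with sham. It stood at 246 and 251 CPM in Sham+Veh, 219 and 229 with CPIP+Veh, and 232 and 219 with CPIP+ETA. All 4 CPIP libraries lay below both sham libraries. The log2 fold change was -0.15 (SE 0.053, adjusted p = 0.938) for CPIP+Veh and -0.14 (SE 0.053, adjusted p = 0.76) for CPIP+ETA, the sham libraries being shared, and the 95% intervals were -0.28 to -0.021 and -0.27 to -0.012. Ndufa4 varied least of the common subunits (coefficient of variation 0.439%), at 199 and 198 CPM in Sham+Veh, 199 and 198 with CPIP+Veh, and 199.5 and 197 with CPIP+ETA, with log2 fold changes of 0.00048 and -0.00029. Cox4i1, the regulatory subunit IV in its common form, was at 463 and 446 CPM in Sham+Veh, 439 and 446 with CPIP+Veh, and 486 and 430.0 with CPIP+ETA, and the libraries of CPIP+ETA were its highest and lowest. The remaining common members, Cox5a, Cox5b, Cox6c, Cox7b, Cox7c and Cox8a, ran from -0.13 to 0.037 for the model and from -0.11 to 0.067 for etanercept.

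Complex V, the ATP synthase, had 15 members in the table under their older Atp5 symbols. Its summed level was 3958 and 3935 CPM in Sham+Veh, 3921 and 3858 with CPIP+Veh, and 4028 and 3797 with CPIP+ETA, with CPIP+ETA again the highest and the lowest. Both sham sums lay above both CPIP+Veh sums, as for complexes II and IV. The 14 subunits tested had medians of -0.036, 0.0090 and -0.046 in the 3 comparisons, with 8, 5 and 10 of them below 0. The catalytic head is made of Atp5a1 (alpha) and Atp5b (beta) around the central stalk of Atp5c1 (gamma), Atp5d (delta) and Atp5e (epsilon). Atp5b, which holds the catalytic sites, was at 1317 and 1343 CPM in Sham+Veh, 1309 and 1316 with CPIP+Veh, and 1343 and 1321 with CPIP+ETA, a coefficient of variation of 1.11%. Atp5a1 stood at 691 and 658 CPM in Sham+Veh, 697 and 681 with CPIP+Veh, and 721 and 679 with CPIP+ETA, and its groups overlapped in every comparison.

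The rotor shaft subunit Atp5c1 was at 232 and 213 CPM in Sham+Veh, 207 and 196 with CPIP+Veh, and 212 and 198 with CPIP+ETA. Both sham values lay above those of the CPIP libraries, by a log2 fold change of -0.14 (SE 0.065, adjusted p = 0.938) for CPIP+Veh. Atp5e stood at 87.7 and 90.8 CPM in Sham+Veh, 82.6 and 87.7 with CPIP+Veh, and 82.2 and 82.4 with CPIP+ETA, with -0.12 (SE 0.056, adjusted p = 0.814) for CPIP+ETA against sham. Atp5d had 0.035 for the model and -0.072 for etanercept. None of these values passed.

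Proton flow through complex V turns a ring of identical c subunits, which the 3 genes Atp5g1, Atp5g2 and Atp5g3 encode. Atp5g2 was at 95.3 and 93.3 CPM in Sham+Veh, 93.6 and 100.2 with CPIP+Veh, and 84.5 and 92.0 with CPIP+ETA, with both etanercept values below the other 4 and a log2 fold change against CPIP+Veh of -0.14 (SE 0.065, adjusted p = 0.938). Atp5g1 and Atp5g3 had 0.0063 and 0.032 in that comparison, so the c subunit genes showed no common direction. Atp5i, a small subunit at the dimer interface, had the lowest log2 fold change of the common subunits for the model, -0.18 (SE 0.091, adjusted p = 0.946). The peripheral stalk subunits Atp5h, Atp5j and Atp5o (the oligomycin sensitivity protein) had -0.053, 0.0053 and 0.0042 for the model and -0.0011, 0.0018 and -0.0054 for etanercept. Atp5f1, the b subunit of that stalk (now Atp5pb), was blank in every library, while every tested common subunit had at least 460 counts in each library, and the blank is not read as absence.

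**Figure D2:**
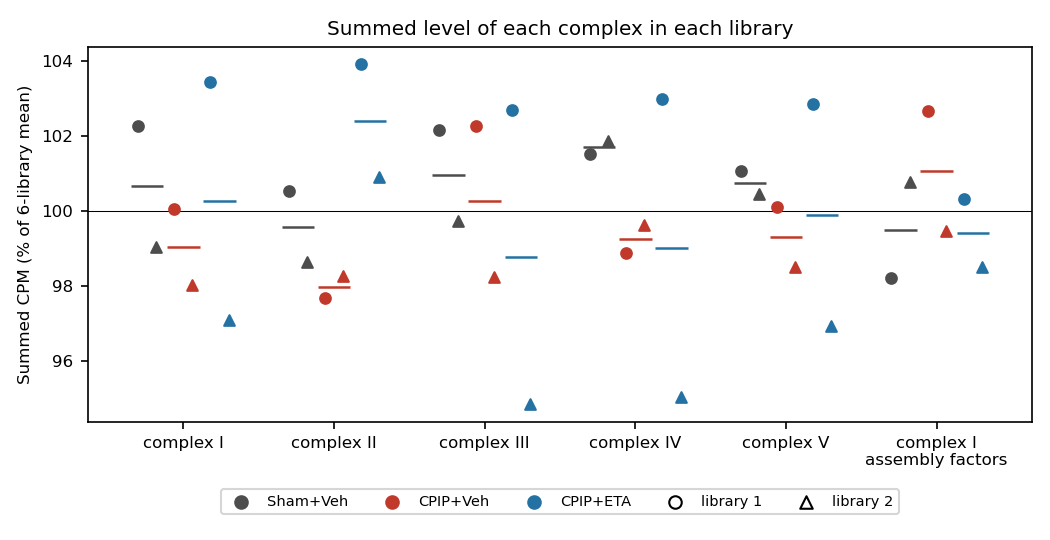
Summed TMM-scaled CPM of each complex and of the complex I assembly factors in each library, as a percent of the mean over the 6 libraries (short lines are group means of 2 libraries). CPIP+ETA 1 is the highest library for complexes I to V, and CPIP+ETA 2 is the lowest for complexes I, III, IV and V.

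Libraries of the etanercept group differed from each other across most of the chain. CPIP+ETA 1 was above CPIP+ETA 2 for 62 of the 69 common subunits, with a median log2 difference of 0.0951. In Sham+Veh and CPIP+Veh library 1 was above library 2 for 45 and 41 of them, with medians of 0.0305 and 0.0205. Over the 15365 genes tested that had a count in every library, 7675 lay above in CPIP+ETA 1. By complex, the etanercept gap covered 31 of 34 common members of complex I, 3 of 4 of complex II, 7 of 8 of complex III, 9 of 9 of complex IV and 12 of 14 of complex V. With RLE scaling the count was 59 of 69 and with library totals 57 of 69, and complex II was then at 2 of 4. Of the 69, 29 were highest in CPIP+ETA 1 and 34 were lowest in CPIP+ETA 2.

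Cell type markers were summed in the same libraries. The summed level of 3 Schwann cell myelin genes (Mbp, Pmp22 and Prx) was 4116 CPM in CPIP+ETA 1 and 6087 in CPIP+ETA 2, with all 3 lower in CPIP+ETA 1, and ran from 4940 to 6119 in the other groups. The 8 sensory neuron markers summed to 18783 and 17240 CPM, with 6 of 8 higher in CPIP+ETA 1. The 9 pericyte and smooth muscle markers summed to 146 and 176, with none higher in CPIP+ETA 1. The 5 endothelial markers summed to 79.8 and 94.7 CPM, with 0 of 5 higher in CPIP+ETA 1, and the 12 skeletal muscle markers to 13.0 and 53.6, with 0 of 12 higher. The 4 red blood cell markers went the other way, with a sum of 262 and 155 CPM, and all 3 of them that were tested were higher in CPIP+ETA 1. Satellite glia (4611 and 4374 CPM) and macrophage markers (152 and 153) had 2 of 4 and 4 of 5 higher in CPIP+ETA 1. The 8 adipocyte markers summed to 9.26 and 10.4 CPM, and only 2 tested ones had a count in every library, of which 1 was higher in CPIP+ETA 1. The part of these cell types in the difference of the chain genes was not tested.

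**Figure D3:**
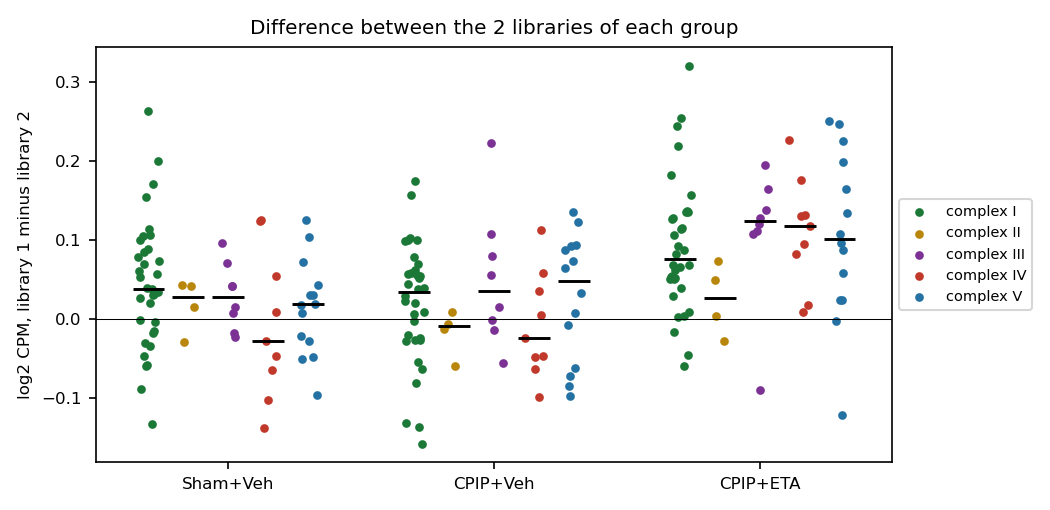
Difference in log2 TMM-scaled CPM between library 1 and library 2 of each group, 1 point per common subunit (69 in all), coloured by complex, with black lines at the median of each complex. In CPIP+ETA 62 of 69 points lie above 0, against 45 in Sham+Veh and 41 in CPIP+Veh.

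Library to library, the common subunits varied less at the median than other genes. Their median coefficient of variation over the 6 libraries was 4.21%, from 3.08% for complex II to 4.57% for complex V. The median was 7.85% for all 15531 genes tested and 5.19% for the 7932 of them with a mean of at least 20 CPM, a minimum chosen after the values were seen because every common subunit lies above it. Counting error makes this measure larger at low counts, and the sets were not matched for level beyond that minimum. The part of read depth in the difference was not tested. Counts per library ran from 460 for a library of Ndufc1 to 26679 for a library of Atp5b, so no common subunit that was tested rested on a few reads.

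The tissue-restricted isoforms had few reads. Complex IV has alternative forms of several subunits: Cox6a2, Cox7a1 and Cox8b belong to heart and skeletal muscle, Cox4i2 to lung and vascular cells, and Cox6b2, Cox7b2 and Cox8c to testis. Cox6a2 had 1 and 3 counts in Sham+Veh, 2 and 11 with CPIP+Veh, and 0 and 5 with CPIP+ETA. Cox8b had 3 and 0 counts in Sham+Veh, 2 and 10 with CPIP+Veh, and 5 and 5 with CPIP+ETA. The highest library was CPIP+Veh 2 for both, and neither reached the minimum for testing. Cox7b2 had 1 count in all, and Cox8c was blank.

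Of the 12 skeletal muscle markers, 10 were highest in the same library, and Myh4 and Myh7 were highest in CPIP+ETA 2. Acta1, the muscle actin, had 172 and 259 counts in Sham+Veh, 182 and 616 with CPIP+Veh, and 129 and 334 with CPIP+ETA. Ckm, the muscle creatine kinase, had 31 and 67 counts in Sham+Veh, 37 and 230 with CPIP+Veh, and 16 and 160 with CPIP+ETA. The 12 muscle markers summed to 92.5 CPM in CPIP+Veh 2, 53.6 in CPIP+ETA 2 and 13.0 to 34.2 in the other 4, with Myh2 at 0 in Sham+Veh 1, CPIP+Veh 1 and CPIP+ETA 1 and Mb at 0 in CPIP+ETA 1. The row named Cox7a1, whose identifier has no RefSeq match, had 12 and 18 counts in Sham+Veh, 24 and 15 with CPIP+Veh, and 13 and 16 with CPIP+ETA. The row whose identifier is now called Cox7a1 had 34 and 31 counts in Sham+Veh, 35 and 46 with CPIP+Veh, and 38 and 36 with CPIP+ETA. The former was highest in CPIP+Veh 1 and the latter, like Cox6a2 and Cox8b, in CPIP+Veh 2. The part of the muscle markers in the counts of these isoforms was not tested. Ucp1, the uncoupling protein that defines brown fat, was at 0 in all 6 libraries, which allows up to 3 counts in each.

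**Figure D4:**
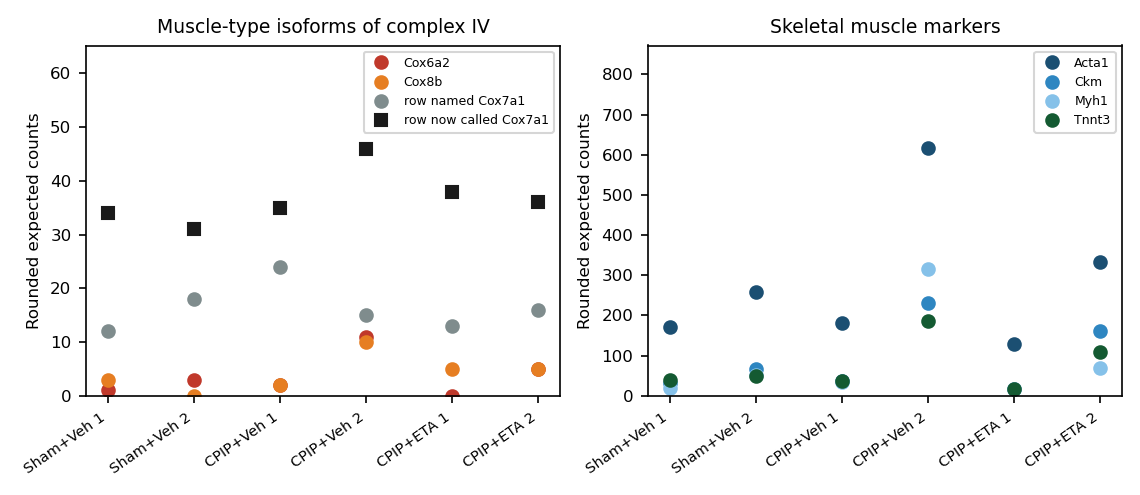
Rounded expected counts per library of the muscle-type isoforms (left) and of 4 skeletal muscle markers (right). Cox7a1 is drawn as the row of that name, which has no RefSeq match, and as the row whose identifier is now called Cox7a1. Cox6a2 (11 counts), Cox8b (10 counts) and the row now called Cox7a1 (46 counts) have their highest value in CPIP+Veh 2, as do the 4 markers, and the row named Cox7a1 does not.

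Cox4i2 and Ndufa4l2, genes known to respond to low oxygen and found in pericytes, also had few reads. Cox4i2 stood at 2.60 and 2.52 CPM in Sham+Veh, 3.19 and 2.47 with CPIP+Veh, and 3.02 and 2.72 with CPIP+ETA, a log2 fold change of 0.15 (SE 0.23, adjusted p = 0.972) for the model. Ndufa4l2 was at 1.79 and 1.86 CPM in Sham+Veh, 2.02 and 1.61 with CPIP+Veh, and 1.66 and 0.925 with CPIP+ETA, with CPIP+ETA 2 the lowest, and had -0.0033 (SE 0.35, adjusted p = 0.999) for the model and -0.48 (SE 0.36, adjusted p = 0.938) for etanercept. Pericyte and smooth muscle markers as a list had a median of -0.36 for the model (all genes -0.0031), with 0 of 9 called by edgeR and 5 of 9 lower at an unadjusted p under 0.05 (2.59% of all genes). For etanercept against CPIP+Veh the list had a median of 0.31 (all genes -0.0016), with 0 called and 3 of 9 higher at that threshold (2.42% of all genes), the opposite sign to Ndufa4l2. The part of these markers in the values of Cox4i2 and Ndufa4l2 was not tested. Cox6b2 stood at 1.41 and 1.48 CPM in Sham+Veh, 1.47 and 1.56 with CPIP+Veh, and 1.26 and 0.653 with CPIP+ETA, also lowest in CPIP+ETA 2. Intervals for these low genes were wide and reached past a 1.5-fold change in at least 1 comparison, so a change of that size was not excluded there. The parts of read depth and of the spread between libraries in these widths were not tested.

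A few rows carry the names of related copies, and how the authors treated reads that fit several genes is not given in the sources used here, so the values of these rows are uncertain. Ndufa10l1, named as a copy of the accessory subunit Ndufa10, was the most variable tested member, at 1.52 and 19.0 CPM in Sham+Veh, 15.4 and 17.3 with CPIP+Veh, and 35.5 and 0.708 with CPIP+ETA. It was lowest in CPIP+ETA 2 and Sham+Veh 1 and highest in CPIP+ETA 1, a 50.2-fold range that split every group but CPIP+Veh. Its share of the reads of the pair was 12.5% (95% Wilson interval 11.7% to 13.4%) in CPIP+ETA 1 and 0.309% (0.181% to 0.529%) in CPIP+ETA 2, intervals that cover counting error only. Ndufa10 itself stood at 246 and 241 CPM in Sham+Veh, 236 and 227 with CPIP+Veh, and 249 and 228 with CPIP+ETA. Both rows were highest in CPIP+ETA 1, and their sum ran from 229 to 285 CPM. Whether the rows exchange reads was not tested. The log2 fold changes of Ndufa10l1 were 0.68 (SE 1.37) for the model and 0.15 (SE 1.32) for etanercept, both smaller than their SE.

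Cox7a2, the common form of subunit VIIa, had 35 and 50 counts in Sham+Veh, 23 and 47 with CPIP+Veh, and 82 and 42 with CPIP+ETA, while Cox7a2l2, which the name places beside it, stood at 167 and 168 CPM in Sham+Veh, 184 and 166 with CPIP+Veh, and 184 and 164 with CPIP+ETA. The sequences of the pair were not compared here, so which gene the reads came from was not tested. Cox7a2l, a factor that joins complexes III and IV into supercomplexes, was at 228 and 225 CPM in Sham+Veh, 238 and 216 with CPIP+Veh, and 226 and 216 with CPIP+ETA, and its groups overlapped in all 3 comparisons. Atp5s and Atp5sl, which carry Atp5 names but are not ATP synthase subunits (now Dmac2l and Dmac2), had -0.020 and -0.037 for the model.

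**Figure D5:**
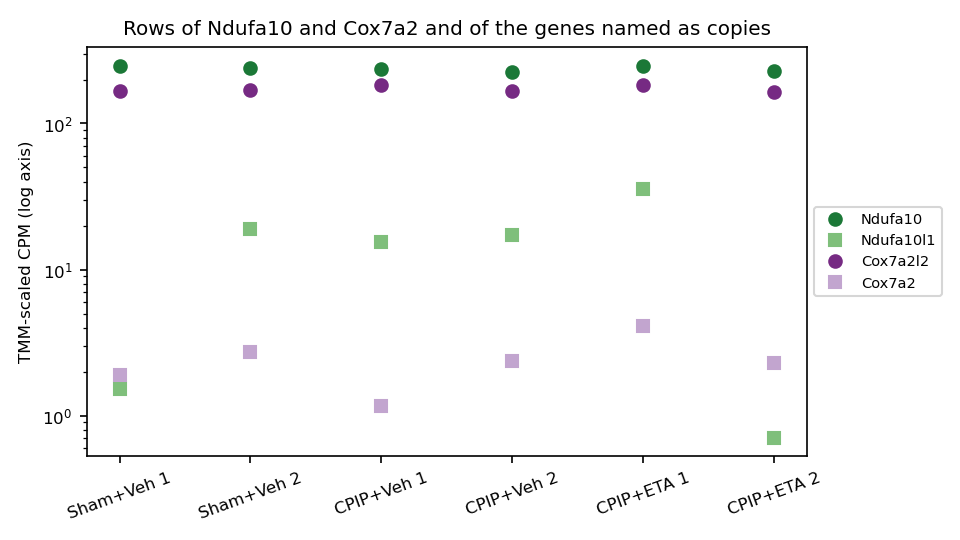
TMM-scaled CPM per library, on a log axis, of Ndufa10 and Ndufa10l1 and of Cox7a2 and Cox7a2l2. Ndufa10l1 runs from 0.708 to 35.5 CPM while Ndufa10 stays between 227 and 249.

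Symbols in the table are older than those in use, which moves some subunits outside the name rule. Of the 92 members 91 matched a RefSeq gene by identifier, and 18 of them now carry another symbol. The row named Ndufs6 (10 counts in all) is now listed as a pseudogene, and the subunit itself sits under a provisional symbol, at 23.5 and 23.2 CPM in Sham+Veh, 21.6 and 22.2 with CPIP+Veh, and 21.3 and 20.8 with CPIP+ETA. The row named Cox7a1 was the one with no match, and the identifier now called Cox7a1 was at 1.84 and 1.70 CPM in Sham+Veh, 1.77 and 2.32 with CPIP+Veh, and 1.91 and 1.96 with CPIP+ETA. In all, 13 rows outside the rule have a chain symbol by identifier, of which 11 were tested and 0 passed with edgeR in any comparison.

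Among those rows are subunits that complete the complexes. Cox6b1, the common subunit VIb that faces cytochrome c, was at 220.3 and 232 CPM in Sham+Veh, 209 and 221 with CPIP+Veh, and 222 and 202 with CPIP+ETA. Its log2 fold change was -0.070 for the model. Ndufa13, an accessory subunit of complex I, stood at 107 and 101 CPM in Sham+Veh, 91.2 and 94.5 with CPIP+Veh, and 96.9 and 94.3 with CPIP+ETA, and all 4 CPIP values lay below sham, with -0.16 (SE 0.057, adjusted p = 0.938) for CPIP+Veh.

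Other genes of mitochondrial energy supply were taken from lists. Of 37 assembly factors outside the rule 0 passed with edgeR in any of the 3 comparisons, and their medians were -0.012 for the model and -0.0011 for etanercept. At an unadjusted p under 0.05 they had 0 for the model (4.94% of all genes) and 2 of 37 for etanercept, near the 5.15% of all genes: Coa7, a complex IV factor, at -0.33 (SE 0.14, adjusted p = 0.938), and Sdhaf4, which helps Sdha join complex II, at 0.20 (SE 0.083, adjusted p = 0.938). Of 10 electron carriers and further subunits 0 passed. In that list Etfb and Etfdh, which feed electrons from fatty acid oxidation into ubiquinone, had 0.24 (SE 0.081, adjusted p = 0.938) and 0.10 for the model and -0.11 and -0.17 (SE 0.055, adjusted p = 0.938) for etanercept.

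Of 16 regulators of mitochondrial biogenesis 0 passed, with medians of -0.021 for the model and 0.015 for etanercept. Ppargc1a, the coactivator PGC-1alpha, stood at 23.5, 22.0, 25.9, 26.8 and then 25.7 and 24.1 CPM in Sham+Veh 1 and 2, CPIP+Veh 1 and 2 and CPIP+ETA 1 and 2. Its log2 fold change for the model was 0.21 (SE 0.082, adjusted p = 0.938). The 16 enzymes of the citric acid cycle and pyruvate dehydrogenase had medians of 0.018 and -0.00017 with 0 called, and Pdha1, the E1 alpha subunit of pyruvate dehydrogenase, had 0.12 (SE 0.048, adjusted p = 0.938) for the model.

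Glycolysis, the route to ATP outside mitochondria, had a median of 0.077 over 19 members for the model, with 14 above 0 (49.0% of all genes) and 0 called. At an unadjusted p under 0.05 there were 2 of 19 for the model (4.94% of all genes): the neuronal enolase Eno2 at 0.15 (SE 0.059, adjusted p = 0.938) and the pyruvate kinase Pkm at 0.14 (SE 0.056, adjusted p = 0.938). For etanercept the median was 0.0019, and the neuronal glucose transporter Slc2a3 had -0.18 (SE 0.054, adjusted p = 0.938). For CPIP+ETA against Sham+Veh, which shares the sham libraries, the median was 0.052 with 16 of 19 above 0 (49.3% of all genes) and 0 called. At an unadjusted p under 0.05 there were 2 of 19 (6.37% of all genes), the enolase Eno1 at 0.22 (SE 0.06, adjusted p = 0.626) and the hexokinase Hk2 at 0.51 (SE 0.15, adjusted p = 0.636). Mitochondrial ribosome and import genes (23) had medians of 0.022 for the model and -0.0037 for etanercept. In these 2 comparisons 0 were called and 0 were at an unadjusted p under 0.05 (4.94% and 5.15% of all genes). For CPIP+ETA against Sham+Veh the median of the 23 was 0.0098, with 0 called and 1 at that threshold (6.37% of all genes).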

How the data were processed

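The data are bulk RNA-seq of 6 libraries, 2 per group, read on the BGISEQ-500 from Trizol RNA with a RIN of at least 8.0, per the labels' protocols. The values are used as the authors deposited them and were assumed to be expected counts (estimated reads per gene). In rows that are not blank, 32.7% of the values were whole numbers. The submitters' processing notes name the genome build Rnor_6.0. Which aligner, counter, annotation and strand setting were used is not given in the sources used here. Blank rows (2907) were read as 0, and expected counts were rounded.

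The test was edgeR's quasi-likelihood test (edgeR 4.0.16, R 4.3.3): 1 fit of all 6 libraries, group as the only term, TMM scaling, and filterByExpr by group (minimum count 10, minimum total 15), which left 15531 genes and 86 of 92 members. Adjusted p-values are Benjamini-Hochberg over all genes tested, called under 0.05. SE was obtained as the size of the log2 fold change over the root of its F statistic, and 95% intervals use a t quantile of 2.39 (3 residual and 3.64 prior degrees of freedom). The procedure was tested on simulated data. Alternatives were DESeq2 1.42.0, limma-voom (limma 3.58.1), RLE scaling, scaling by library total, 2 other filters, only the groups compared, the replicate number as a block, and each library left out. Members, lists and the naming rule (the 4 members with the lowest p per comparison, complex II, core subunits, restricted isoforms and their partners, the extremes of level, and any member called) were chosen with earlier results of these data known. Other members are named to account for the list, and values of 1 subunit and 1 cell type marker are not reported here. Identifiers were matched to RefSeq tables of GRCr8, a later build, for names and promoters. Figures used matplotlib 3.10.9.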

Additional observations from a re-analysis of the deposited data

How the results depend on the processing

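No member was called in any of the 3 comparisons under any of the 14 alternatives each, DESeq2 and limma-voom included. Of these alternatives, 8 do not leave a single library out. The smallest adjusted p of any member over those 8, by edgeR, was 0.767 for CPIP+Veh against Sham+Veh (only the groups compared). It was 0.864 for CPIP+ETA against CPIP+Veh and 0.710 for CPIP+ETA against Sham+Veh (both with the replicate number as a block). The median log2 fold change of the tested members stayed within -0.022 to 0.0065 under the 8 alternatives that do not leave a single library out. Leaving out 1 library moved it to between -0.023 (without CPIP+Veh 1) and 0.011 (without Sham+Veh 1) for CPIP+Veh against Sham+Veh. For CPIP+ETA against CPIP+Veh the range was -0.051 (without CPIP+ETA 1) to 0.042 (without CPIP+ETA 2), and for CPIP+ETA against Sham+Veh -0.053 to 0.026 (without the same libraries). For CPIP+ETA against CPIP+Veh the sign also turned with the vehicle library, at 0.021 without CPIP+Veh 1 and -0.015 without CPIP+Veh 2. Such a fit leaves a group with a single library, whose spread is then taken from the other groups.

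Replicate numbers are shared by the groups, but the labels do not say that they mark an animal, day or batch. Deviations of same-numbered libraries correlated across genes at 0.0345, -0.106 and 0.0503 for the 3 pairs of groups, so the numbers were not taken as a pairing. With the number as a block, 0 members were called and the medians were 0.00045, -0.0010 and -0.019. The 95% intervals of single subunits are not adjusted for the number of genes, so they are narrower than what a call needs.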

Other observations

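Some rows outside the name rule are now named as pseudogenes of chain subunits, and they differed in how far they varied. The row now called Ndufs5-ps2 had 121 and 7 counts in Sham+Veh, 198 and 193 with CPIP+Veh, and 263 and 131 with CPIP+ETA, lowest in Sham+Veh 2 and highest in CPIP+ETA 1, while Ndufs5 stayed between 77.7 and 90.6 CPM. Atp5mk-ps2 had 10 and 12 counts in Sham+Veh, 22 and 45 with CPIP+Veh, and 25 and 21 with CPIP+ETA, and Uqcr10-ps1 had 167 and 184 counts in Sham+Veh, 150 and 148 with CPIP+Veh, and 177 and 143 with CPIP+ETA. None of these rows passed with edgeR, and whether their reads belong to the parent genes was not tested.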
